A study of Homo sapiens with 24 samples.

Results

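HEK293 cells, an established human embryonic kidney line, were taken with and without the inflammatory cytokine TNFα, and the response of the cells that carried no plasmid is described here. The members are the 6 arrays labelled as control cells, of 24 in the series. On 3 of them the cells had received 10 ng/ml TNFα in fresh medium, and on the other 3 medium with an equal volume of PBS/0.1% BSA (unstimulated). The remaining 18 arrays hold cells that carried a plasmid, either the empty vector or an expression vector for SIRT6 or for H133W, a form of SIRT6 without deacetylase activity, each with and without TNFα and again 3 arrays per condition. The methods of the study give 24 h of growth in medium with transfection complexes before stimulation. The control cells are listed among these transfections as a condition with no DNA. Whether they met the transfection reagent is not stated in the sources used here. The duration of stimulation is 4 h in the methods of the study and 1 h in the design text of the series, so that it is not settled. The labels call the 3 arrays of a condition biological replicates of 1 cell line and do not say that they came from separate cultures or days. The p values rest on the spread between arrays within a condition, pooled over all 24 arrays, and may not hold for separate cultures or days.

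RNA was hybridised to Affymetrix HG-U133 Plus 2.0 arrays, on which each probe set reads 1 transcript or a group of related ones. Values are log2 RMA signals, in which a difference of 1 is a doubling on the linear scale, and levels of different probe sets cannot be set against each other. A transcript counted as changed where the adjusted p was below 0.05 and the fold exceeded 1.5 in either direction, a log2 change of 0.585. The HEK293 reference markers averaged 4.73 to 12.42 on the TNFα arrays and 4.82 to 12.35 on the unstimulated ones, and VIM, the intermediate filament protein of these cells, had means of 11.69 with TNFα and 11.75 without. Of these 13 markers 0 passed, where 0.845% of all genes rose and 0.334% fell. The markers of blood cells did not exceed 4.68 with TNFα and 4.85 without. The leukocyte antigen PTPRC was at 2.78 with TNFα and 2.77 without. Fibroblast markers reached 7.60 with TNFα and 7.68 without. Arrays of a condition correlated at 0.9954 to 0.9984 over all probe sets. By the array weight that limma estimates, which is low where an array departs from its replicates, unstimulated replicate 2 was the second lowest of the 24 (0.311) and TNFα replicate 3 the fourth lowest (0.439).

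TNFα binds the receptor TNFR1, which gathers TRADD, RIPK1 and TRAF proteins and activates the IκB kinase complex. The kinase marks IκB proteins for destruction, which frees NFκB dimers such as p65/p50 to enter the nucleus and to bind κB sites beside their target genes. These targets are known to include chemokines, adhesion molecules, NFκB subunits and the inhibitors of the pathway itself, among them IκBα and A20.

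TNFα upregulated 291 of the 41097 probe sets that stand for a single gene (0.708%) and downregulated 87 (0.212%). Read with 1 probe set per gene, the one with the highest mean over all arrays, 167 of 19775 genes rose (0.845%) and 66 fell (0.334%). By any of their probe sets, 202 genes rose, 73 fell and 0 were called in both directions. Counts over a gene list below use the probe set of highest mean, the main one, unless another reading is given. The shares of 0.845% and 0.334% are their background. The lists were chosen with earlier results of these data known, so that no count is a test of a family. The rises were the larger changes. Of the upregulated probe sets 155 changed up to 2-fold, 102 between 2- and 4-fold, 19 between 4- and 8-fold and 15 by more, up to 78.5-fold, whereas 77 downregulated probe sets changed up to 2-fold and 10 between 2- and 4-fold. Of the upregulated ones 93 had an unstimulated mean under 5, against 6 of the downregulated ones, and the median unstimulated level was 6.01 for upregulated, 7.42 for downregulated and 5.92 for all single-gene probe sets. The TNFα and unstimulated arrays did not overlap for 377 of the 378 called probe sets and for 14.7% of all single-gene probe sets. The exception was FRZB, a secreted WNT antagonist, with values of 3.53, 3.61 and 3.02 with TNFα and 4.46, 3.60 and 4.75 without. The number of downregulated transcripts depended on a few arrays. It was 58 without unstimulated replicate 1, 59 without TNFα replicate 3 and 126 without unstimulated replicate 2. Fitted on the 6 arrays of untransfected cells alone, 248 transcripts rose and 65 fell, and 18 of the 120 named genes that were called lost the call. Those genes were CSF1, CSRNP1, CXCL11, DKK1, DRAM1, HAND1, IFIT1, IL18R1, JAM2, MEOX2, MICB, OSR1, PALMD, PLA2G4C, RIGI, SERPINB8, SLC26A4-AS1 and TNFSF15.

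**Figure D1:**
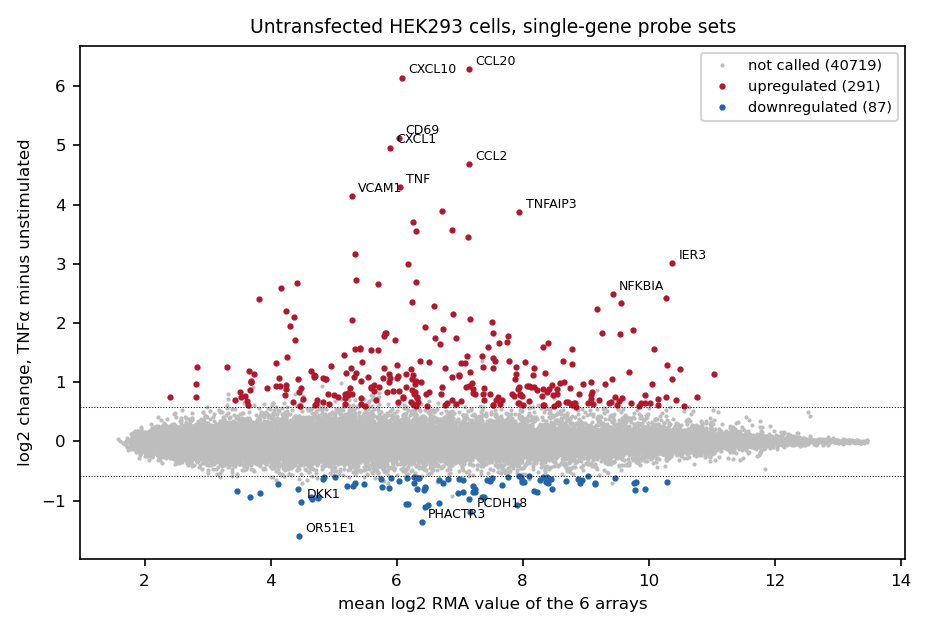
Log2 change (TNFα minus unstimulated) against the mean log2 RMA value of the 6 arrays for the 41097 single-gene probe sets, with the 291 upregulated in red, the 87 downregulated in blue and dotted lines at a 1.5-fold change. The rises reach a log2 change of 6.29 (CCL20), and the falls -1.6 (OR51E1).

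Chemokines, the secreted proteins that draw leukocytes to a tissue, were among the largest rises. CCL20, which attracts cells bearing CCR6, had log2 values of 10.28, 10.37 and 10.22 with TNFα and 3.93, 4.06 and 3.99 without, a 78.5-fold rise (log2 change 6.29, SE 0.20, adjusted p = 2.12e-14). CXCL10, a ligand of CXCR3 on T cells, had 9.14, 9.10 and 9.21 with TNFα and 3.03, 3.22 and 2.77 without (log2 change 6.14, SE 0.18, adjusted p = 8.23e-15). MCP1 (CCL2), the monocyte attractant, had 9.40, 9.56 and 9.50 with TNFα and 4.76, 4.72 and 4.96 without, 25.6-fold higher (log2 change 4.68, SE 0.16, adjusted p = 5.35e-14). In each of them the TNFα arrays lay close together and far above the unstimulated ones. CXCL1, a neutrophil attractant, had 8.46, 8.50 and 8.18 with TNFα and 3.31, 3.58 and 3.36 without, a log2 change of 4.96 (SE 0.15, adjusted p = 1.2e-14). Its relatives CXCL2, CXCL3 and CXCL6 and interleukin 8 (CXCL8), all neutrophil attractants that act through CXCR2, rose by 3.70, 3.46, 2.20 and 3.55 on the log2 scale.

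Of 16 CXC chemokines measured 7 rose and 0 fell, and of 22 CC, XC and CX3C chemokines 4 rose and 0 fell. The median log2 change was 0.30 for the CXC list and -0.01 for the other, beside -0.02 over all genes. Apart from CCL20 the rises lay on chromosomes 4 and 17, beside neighbours that did not pass. On chromosome 4 (GRCh38.p14) CXCL8 (chr4:73740569-73743716), CXCL6, CXCL1 (chr4:73869393-73871308), CXCL3 and CXCL2 (chr4:74097040-74099195) rose, while the platelet chemokines PF4 and PPBP that lie between CXCL1 and CXCL3 had log2 changes of -0.03 and 0.09, and CXCL5 one of 0.51 (adjusted p = 0.365). CXCL5 was at a low level, with means of 3.29 with TNFα and 2.78 without, and it was called in the cells with plasmid. Its changes there were 0.90 in empty vector, 1.05 in SIRT6 and 1.04 in H133W cells. Further along, CXCL10 (chr4:76021118-76023497) and CXCL11 rose, and CXCL9, which lies beside CXCL10, had means of 2.77 with TNFα and 2.83 without. CXCL11, another CXCR3 ligand, rose by 0.87 (adjusted p = 0.0175), but not without TNFα replicate 1 (0.86, adjusted p = 0.0683), TNFα replicate 2 (0.69, 0.146), unstimulated replicate 2 (0.77, 0.0974) or unstimulated replicate 3 (0.79, 0.0959). On chromosome 17 CCL2 (chr17:34255285-34257203), CCL7 and CCL1 rose, the last 2 by 1.19 and 1.07, and CCL11 and CCL8, which lie between CCL7 and CCL1, had changes of -0.06 and -0.04. CXCL12, which keeps haematopoietic cells in the marrow, had means of 5.11 with TNFα and 5.52 without (adjusted p = 0.327), and CCL5 4.49 with TNFα and 4.58 without. None of 20 chemokine receptors passed by its main probe set, beside 0.845% of all genes that rose and 0.334% that fell.

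**Figure D2:**
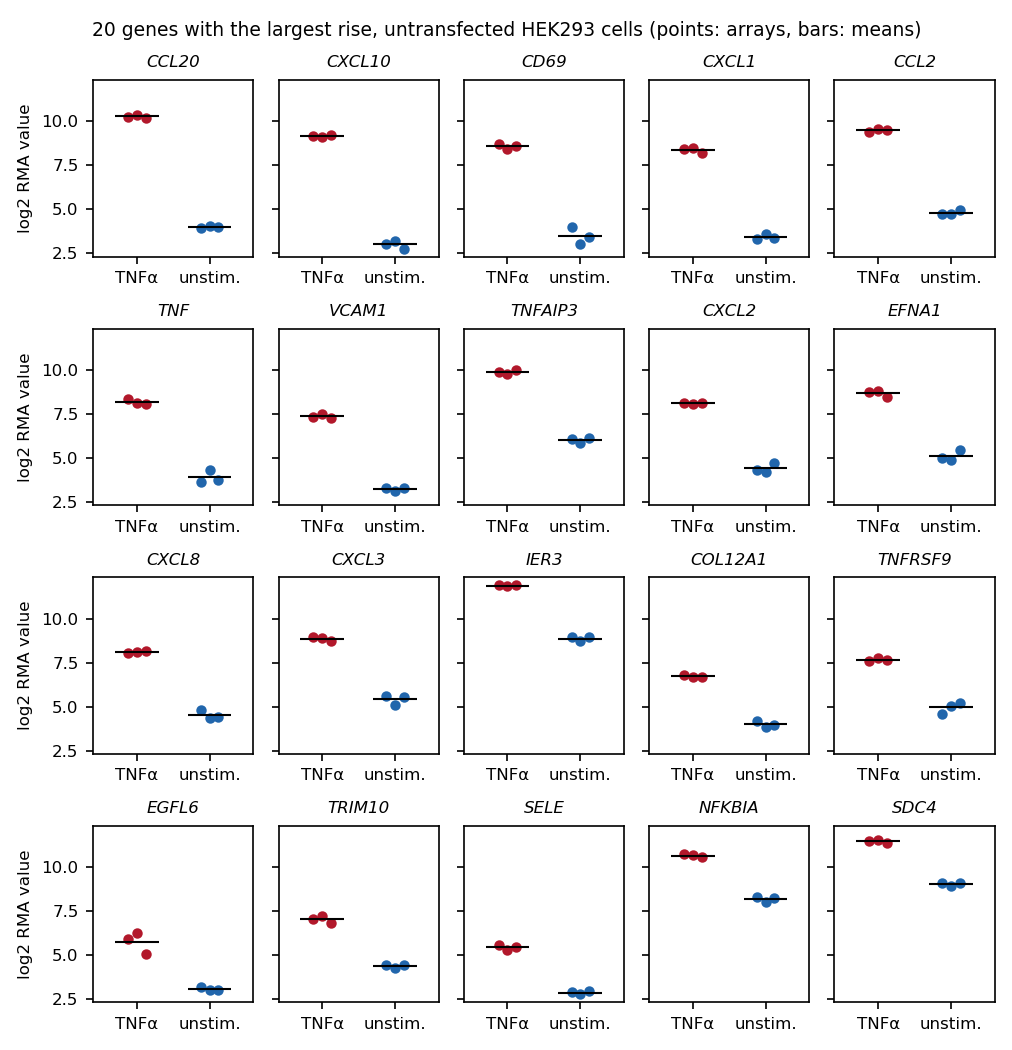
Log2 RMA value on each array (points) and its mean (bar) with TNFα and without for the 20 genes with the largest rise among called genes whose groups of arrays do not overlap. EGFL6 has the widest TNFα spread among them, 5.09 to 6.25.

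Of 11 NFκB subunits and IκB proteins 6 rose and 0 fell, with a median log2 change of 0.87. Over all genes 0.845% rose and 0.334% fell. NFKBIA, which codes for IκBα, the inhibitor that holds NFκB in the cytoplasm, had values of 10.73, 10.71 and 10.57 with TNFα and 8.30, 8.0 and 8.26 without, 5.58-fold higher (log2 change 2.48, SE 0.07, adjusted p = 8.32e-15). RELB, the subunit of the non-canonical pathway, had 7.79, 7.84 and 7.57 with TNFα and 4.97, 6.00 and 5.36 without, a change of 2.29 (SE 0.20, adjusted p = 2.55e-07), and its unstimulated arrays were the more scattered. The precursor genes NFKB2 (p100/p52) and NFKB1 (p105/p50) rose by 1.69 and 1.59, REL by 1.0 and NFKBIZ, an atypical nuclear IκB protein, by 0.87. RELA, which codes for p65, had means of 10.62 with TNFα and 10.54 without (log2 change 0.08, adjusted p = 0.875), and the inhibitors NFKBIB and NFKBIE had changes of 0.29 and 0.39 (adjusted p = 0.13 and 0.292).

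Among 17 regulators that feed back on the pathway 4 rose and 0 fell, beside 0.845% and 0.334% of all genes. TNFAIP3, which codes for the ubiquitin-editing enzyme A20, had 9.88, 9.77 and 10.00 with TNFα and 6.06, 5.83 and 6.15 without, a 14.6-fold rise (log2 change 3.87, SE 0.09, adjusted p = 3.84e-16). IER3, an early response gene linked to cell survival, had 11.89, 11.85 and 11.90 with TNFα and 8.94, 8.73 and 8.93 without, 8.07-fold higher (log2 change 3.01, SE 0.07, adjusted p = 3.84e-16). Both groups of arrays were tight for these genes, and the adjusted p was the lowest of any named gene. OPTN, a ubiquitin-binding adaptor, rose by 0.96, and CYLD, a deubiquitinase, by 0.64, which was 0.57 and below the fold threshold without TNFα replicate 3. TNIP1, a partner of A20, had a log2 change of 0.47 (adjusted p = 0.021) below the fold threshold. Of 22 members of the receptor complex and the IκB kinase 2 rose, MAP3K8, a kinase that links NFKB1 to the ERK pathway, by 1.78 and TIFA, an adaptor of TRAF6, by 1.13. TNFRSF1A, the receptor TNFR1, had means of 8.62 with TNFα and 8.73 without, TRADD 6.70 with TNFα and 6.69 without, and the kinase genes IKBKB and CHUK changes of 0.18 and 0.09 (adjusted p = 0.748 and 0.966). BIRC3, TRAF2 and RIPK1 have no probe set of a single gene in the gene table used and were not analysed here.

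The windows below show where the κB consensus decamer lies upstream of 12 upregulated genes of this system, chosen among those that carry it. They were read from the RefSeq promoter table (GRCh38.p14), which gives 250 bases before each annotated start, and run 5′ to 3′ along the gene. Capitals mark the decamer, read on either strand.
CCL20 (chr2:227813743-227813792, plus strand): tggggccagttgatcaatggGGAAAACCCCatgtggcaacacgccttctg
CXCL10 (chr4:76023590-76023694, minus strand): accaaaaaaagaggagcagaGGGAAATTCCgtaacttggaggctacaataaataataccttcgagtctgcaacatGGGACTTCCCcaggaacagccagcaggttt
CXCL1 (chr4:73869294-73869344, plus strand): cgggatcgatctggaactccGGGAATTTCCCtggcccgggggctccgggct
CXCL2 (chr4:74099243-74099293, minus strand): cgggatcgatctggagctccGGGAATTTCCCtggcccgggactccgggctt
CXCL3 (chr4:74038738-74038788, minus strand): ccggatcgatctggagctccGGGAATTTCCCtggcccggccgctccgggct
VCAM1 (chr1:100719660-100719709, plus strand): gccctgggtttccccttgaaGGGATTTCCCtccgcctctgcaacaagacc
SELE (chr1:169734144-169734193, minus strand): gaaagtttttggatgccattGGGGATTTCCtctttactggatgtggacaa
TNFRSF9 (chr1:7940883-7940933, minus strand): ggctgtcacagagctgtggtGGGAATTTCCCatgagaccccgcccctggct
TNFAIP3 (chr6:137867172-137867233, plus strand): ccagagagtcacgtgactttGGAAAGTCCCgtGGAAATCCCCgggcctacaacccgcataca
NFKBIA (chr14:35404801-35404850, minus strand): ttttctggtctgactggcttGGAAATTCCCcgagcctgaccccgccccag
NFKB1 (chr4:102501290-102501339, plus strand): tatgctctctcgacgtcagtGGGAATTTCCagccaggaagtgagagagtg
REL (chr2:60881507-60881557, plus strand): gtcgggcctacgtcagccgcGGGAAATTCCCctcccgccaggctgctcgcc
Counting back from -1, the base before the start, the decamer begins at -79 in CCL20, at -177 and -122 in CXCL10, at -62 in VCAM1, at -94 in SELE, at -67 and -55 in TNFAIP3, at -81 in NFKBIA and at -49 in NFKB1. In CXCL1, CXCL2, CXCL3, TNFRSF9 and REL the same bases hold it on both strands, shifted by 1 base, and it begins at -79, -78, -79, -74 and -47 in these genes. The windows of CXCL1 and CXCL3 share 47 of 51 bases lined up at the decamer without gaps, those of CXCL1 and CXCL2 43, and those of CXCL2 and CXCL3 42.

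Across all genes with a promoter in the table, the decamer was found upstream of 11 of 17 (64.7%) among the 20 with the largest rise, of 41 of 161 (25.5%) of those upregulated by any probe set, and of 3 of 53 (5.66%) of those downregulated. It stood upstream of 890 of 15382 measured genes (5.79%) and in 1380 of all 27305 promoters (5.05%). Decamers that share no base, 2 or more in a window, were found in 4 (2.48%) of the promoters of upregulated genes (CXCL10, TNFAIP3, SGPP2 and CDC20B, the last 2 named after their windows were seen), in 0 of those of downregulated genes and in 0.267% of those of measured genes. The AP-1 letters TGANTCA, where N is any base, stood upstream of 14 (8.7%) of the upregulated, 4 (7.55%) of the downregulated and 5.03% of the measured genes, and in 6.6% of all promoters. These are matches of letters on both strands and not measured sites of binding.

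TNFα also raised its own transcript. TNF had values of 8.34, 8.15 and 8.09 with TNFα and 3.63, 4.30 and 3.77 without, a log2 change of 4.30 (SE 0.20, adjusted p = 1.11e-11). TNFSF15 (TL1A), a ligand of the death receptor DR3, rose by 1.08 (adjusted p = 0.00446, and 0.111 in the fit on the 6 untransfected arrays), and the other 14 of 16 ligands of the family did not pass. Of 28 receptors of the family 3 rose and 1 fell by their main probe sets, beside 0.845% and 0.334% of all genes. TNFRSF10B had a change of 0.14 by its brightest probe set (adjusted p = 0.343). It was called by others (0.79 and 0.77, adjusted p = 3.27e-05 and 8.95e-05). TNFRSF9 (4-1BB), a costimulatory receptor of lymphocytes, had 7.57, 7.74 and 7.63 with TNFα and 4.59, 5.05 and 5.23 without (log2 change 2.69, SE 0.28, adjusted p = 4.22e-06), and all 3 of its probe sets were called. FAS, the death receptor, rose by 0.78 with all 5 probe sets called, and the neurotrophin receptor NGFR by 0.73. TNFRSF19 (TROY), a receptor of the developing nervous system and skin, had 7.74, 7.81 and 7.74 with TNFα and 8.62, 8.55 and 8.67 without, and fell by 0.85 on the log2 scale (SE 0.11, adjusted p = 8.3e-05).

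VCAM1 and SELE, by which endothelium holds leukocytes, were upregulated in these kidney cells. VCAM1, the ligand of the integrin VLA-4, had 7.33, 7.49 and 7.28 with TNFα and 3.28, 3.09 and 3.28 without, 17.7-fold higher (log2 change 4.15, SE 0.19, adjusted p = 1.11e-11). SELE (E-selectin), on which leukocytes roll, had 5.60, 5.32 and 5.47 with TNFα and 2.89, 2.80 and 2.94 without (log2 change 2.59, SE 0.13, adjusted p = 2.37e-11). Both genes were taken from those whose groups of arrays do not overlap. The heparan sulphate proteoglycan SDC4 rose by 2.43, NINJ1, which acts in nerve adhesion and membrane rupture, by 0.93, and JAM2, a junctional adhesion molecule, by 0.60, so that 5 of 21 members rose and 0 fell. JAM2 was below the fold threshold without TNFα replicate 2 (0.53) or unstimulated replicate 2 (0.52). ICAM1, named after its values were seen, has 3 probe sets, and the one of highest level had means of 5.05 with TNFα and 5.02 without, while another had 3.90 with TNFα and 3.15 without and was called (log2 change 0.75, adjusted p = 0.00486). The 8 endothelial markers had means of up to 5.31 with TNFα and 5.44 without, and 0 passed, where 0.845% of all genes rose and 0.334% fell.

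CD69, a C-type lectin that marks newly activated lymphocytes, had 8.72, 8.44 and 8.63 with TNFα and 3.97, 3.03 and 3.44 without, a 34.7-fold rise (log2 change 5.12, SE 0.16, adjusted p = 1.91e-14). TLR7, the endosomal receptor of single-stranded RNA, had 5.11, 5.16 and 4.78 with TNFα and 2.60, 2.61 and 2.62 without (log2 change 2.40, SE 0.17, adjusted p = 7.49e-09). IRAK2, a kinase of the Toll-like receptor pathway, rose by 1.36, and these 2 were the members of 19 that passed. Of 40 interleukins and colony stimulating factors 3 rose, beside 0.845% of all genes. IL32, a proinflammatory cytokine, rose by 1.83 (SE 0.10, adjusted p = 1.84e-10), IL17F by 0.94 and CSF1, the macrophage growth factor, by 0.73. IL17F lost its call where any array other than TNFα replicate 1 was left out, with changes of 0.79 to 1.01 and adjusted p of 0.0506 to 0.182, and CSF1 without TNFα replicate 1 (0.66, adjusted p = 0.137), TNFα replicate 2 (0.66, 0.139) or unstimulated replicate 2 (0.60, 0.138). IL6, a common target of NFκB in other cells, had means of 4.67 with TNFα and 4.83 without (adjusted p = 0.899), IL1B 3.88 with TNFα and 3.83 without, and LIF 5.85 with TNFα and 5.35 without (adjusted p = 0.119). Of 34 interleukin receptors IL18R1 rose, by 0.96 (adjusted p = 0.00442), as the single called member by its main probe set. In the fit on the 6 untransfected arrays IL18R1 (adjusted p = 0.163) and CSF1 (0.122) were not called.

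Of 34 interferon response genes 3 rose and 1 fell, beside 0.845% and 0.334% of all genes. IRF1, the interferon regulatory factor, had 8.46, 8.55 and 8.35 with TNFα and 6.78, 6.50 and 6.57 without, 3.57-fold higher (log2 change 1.83, SE 0.07, adjusted p = 2.67e-13). IRF2, its antagonist at many promoters, rose by 0.95 and the RNA sensor RIGI by 0.80. IFIT1, a typical interferon-stimulated gene, fell by 0.72 (adjusted p = 0.0353), and lost the call without TNFα replicate 1 (-0.75, adjusted p = 0.0825), TNFα replicate 3 (-0.60, 0.199), unstimulated replicate 1 (-0.74, 0.0961) or unstimulated replicate 3 (-0.54, 0.21). ISG15 and MX1 had log2 changes of 0.15 and -0.28 (adjusted p = 0.617 and 0.631). In the MHC class I pathway 3 of 21 genes rose. They were the peptide-loading protein TAPBP (log2 change 1.22, SE 0.08, adjusted p = 1.35e-09), the peptide transporter TAP1 (0.76) and MICB (0.62), a stress ligand of NK cells. MICB was below the fold threshold without TNFα replicate 3 (0.53) or unstimulated replicate 3 (0.55). In the fit on the 6 untransfected arrays RIGI (adjusted p = 0.114), IFIT1 (0.183) and MICB (0.0696) were not called.

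JUNB was the 1 of 15 AP-1 factors that passed, with 10.75, 10.64 and 10.69 with TNFα and 8.85, 8.74 and 8.87 without (log2 change 1.87, SE 0.08, adjusted p = 2.49e-12). JUN had means of 11.49 with TNFα and 11.47 without, and FOS 4.31 with TNFα and 4.78 without (log2 change -0.47, adjusted p = 0.0448, below the fold threshold). Of 23 members of the EGR, NR4A, KLF, CSRNP and ZFP36 families 4 rose and 1 fell by their main probe sets. By any probe set 6 rose and 2 fell. The 4 were ZFP36 (tristetraprolin, 1.14), which destabilises the mRNA of cytokines, the nuclear receptor NR4A3 (0.88), KLF4 (0.65) and CSRNP1 (0.64). CSRNP1 was below the fold threshold without unstimulated replicate 1 (0.54) and not called in the fit on the 6 untransfected arrays (adjusted p = 0.0637). KLF9 had a change of 0.30 by its brightest probe set (adjusted p = 0.631) and was called by another (1.835, adjusted p = 3.91e-05). KLF15, a metabolic regulator, had 4.30, 4.33 and 4.21 with TNFα and 5.20, 5.29 and 5.17 without, and fell by 0.94 (adjusted p = 0.000128). Of 18 NFAT and ETS factors NFATC2, NFATC1 and ETS1 rose, by 1.6, 0.91 and 0.81. ETV1 had a change of -0.92 with arrays that did not overlap and was not called in the main fit (adjusted p = 0.203). It was called in the fit on the 6 untransfected arrays (adjusted p = 0.0201) and with array weights (8.92e-05). SOCS2, a feedback inhibitor of growth hormone signalling, was the 1 of 21 members of the JAK-STAT list that rose (0.88).

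Genes of the extracellular matrix rose in 5 of 24 cases and fell in 0, beside 0.845% and 0.334% of all genes. COL12A1, a fibril-associated collagen, had 6.81, 6.68 and 6.66 with TNFα and 4.19, 3.83 and 3.95 without (log2 change 2.73, SE 0.11, adjusted p = 1.01e-12). PTX3, a soluble pattern recognition protein, rose by 2.35, tenascin C (TNC) by 1.89, EMILIN2 by 1.24 and the hyaluronan synthase HAS2 by 1.0. Of 24 matrix proteases and inhibitors 4 rose and 1 fell. TFPI2, an inhibitor of plasmin, rose by 2.15, SERPINA3 by 1.13, urokinase (PLAU) by 0.91 and SERPINB8 by 0.75, and the aggrecanase ADAMTS5 fell by 0.68. SERPINA3 was not called without TNFα replicate 1 (1.03, adjusted p = 0.0623) or unstimulated replicate 3 (0.98, 0.0693), nor SERPINB8 in the fit on the 6 untransfected arrays (adjusted p = 0.0664).

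EFNA1, which was cloned as a TNFα-induced gene of endothelium and binds EPHA2, had 8.77, 8.79 and 8.46 with TNFα and 4.98, 4.88 and 5.43 without, 11.9-fold higher (log2 change 3.58, SE 0.11, adjusted p = 1.91e-14). The receptor EPHA4 fell by 0.70, and the other 16 of 18 ephrins and receptors did not pass. BMP2, a bone morphogenetic protein, had 10.98, 10.93 and 10.90 with TNFα and 9.72, 9.61 and 9.63 without (log2 change 1.29, SE 0.05, adjusted p = 1.55e-12), and was the 1 of 26 members of the BMP and TGFβ pathway that passed. The list had a median of -0.13. In the synthesis of prostaglandins PTGES, the terminal synthase of prostaglandin E2, rose by 1.78 (adjusted p = 2.19e-08) and PLA2G4C by 0.81, 2 of 13 members, while PTGS2 (COX-2) had means of 4.18 with TNFα and 3.86 without (adjusted p = 0.9). PLA2G4C was not called without TNFα replicate 1 (0.79, adjusted p = 0.0575), TNFα replicate 2 (0.68, 0.101) or unstimulated replicate 1 (0.71, 0.0913). Among 20 somatostatin and other peptide or amine receptors the histamine receptor HRH1 rose by 1.95 and SSTR2 by 1.56, whereas SSTR1 and GPR39 fell by 1.06 and 0.82. CALCB, which codes for a calcitonin gene-related peptide, had 10.46, 10.38 and 10.49 with TNFα and 8.63, 8.59 and 8.69 without (log2 change 1.81, SE 0.06, adjusted p = 4.39e-14).

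**Figure D3:**
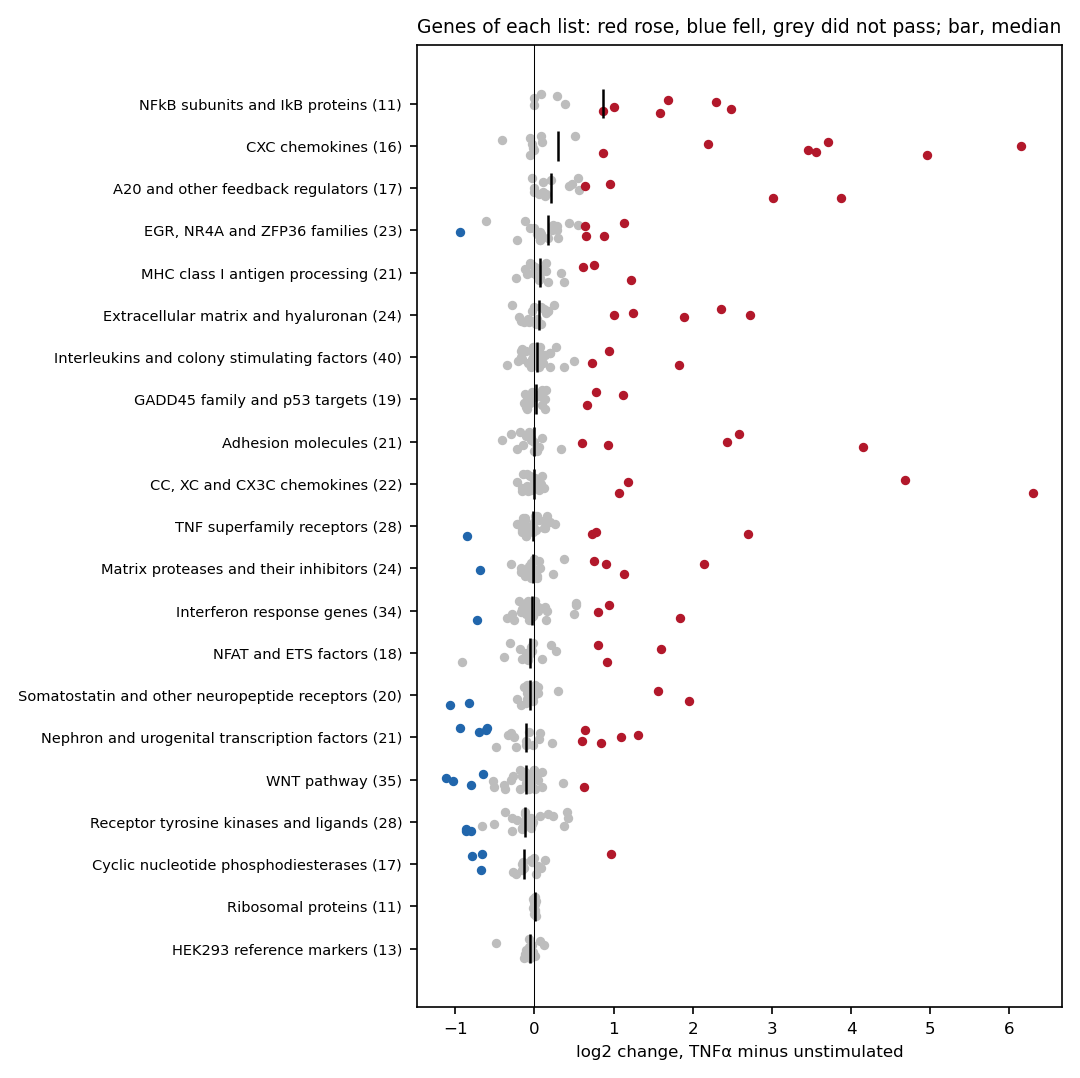
Log2 change (TNFα minus unstimulated) of each gene of a list, with genes that rose in red, genes that fell in blue, genes that did not pass in grey, the median as a bar and the number of genes measured in brackets. The lists shown had 3 or more called genes, with 2 for comparison below them, and the medians run from 0.87 for NFκB subunits and IκB proteins to -0.13 for the phosphodiesterases.

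OR51E1, an olfactory receptor expressed outside the nose, had 4.01, 3.86 and 3.08 with TNFα and 5.45, 4.84 and 5.45 without, the largest fall (log2 change -1.6, SE 0.23, adjusted p = 0.00022). It was the 1 of 9 receptors of family 51 that passed, and its neighbour OR51E2 had a change of -0.58 (adjusted p = 0.0015), just under the fold threshold. PHACTR3, a regulator of protein phosphatase 1 and actin, had 5.94, 5.79 and 5.42 with TNFα and 7.28, 6.91 and 7.06 without (log2 change -1.37, SE 0.15, adjusted p = 9e-06). The protocadherin PCDH18 had 6.55, 6.54 and 6.63 with TNFα and 7.69, 7.67 and 7.92 without (log2 change -1.19, SE 0.16, adjusted p = 8.4e-05). The 3 genes were taken from those whose groups do not overlap, and in OR51E1 and PHACTR3 TNFα replicate 3 was the lowest array. BMF, a proapoptotic BH3-only protein, fell by 1.06 and was the 1 called member of 16 in the BCL2 family. SERTM1 fell by 1.05 and TMEM100 by 0.94.

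WNT pathway genes had 4 falls and 1 rise among 35, beside 0.334% that fell and 0.845% that rose over all genes. WNT16, a WNT ligand, had 5.78, 5.99 and 5.90 with TNFα and 7.19, 6.87 and 6.95 without (log2 change -1.12, SE 0.13, adjusted p = 1.92e-05). The extracellular inhibitor DKK1 fell by 1.03, the Dishevelled-binding proteins CXXC4 and DACT1 by 0.80 and 0.65, and NKD2, an antagonist of Dishevelled, rose by 0.63. The calls of DKK1, CXXC4 and NKD2 depended on the arrays or settings used. By a plain linear model (adjusted p = 0.0527) and with array weights (-0.68, 0.057) DKK1 was not called. The fit on the 6 untransfected arrays did not call DKK1 either (adjusted p = 0.193). DKK1 was not called without TNFα replicate 2 (-1.08, adjusted p = 0.0593), TNFα replicate 3 (-0.77, 0.171), unstimulated replicate 2 (-1.03, 0.0729) or unstimulated replicate 3 (-0.86, 0.146), CXXC4 not without unstimulated replicate 3 (-0.68, 0.055), and NKD2 was below the fold threshold without unstimulated replicate 2 (0.53). The receptor FZD4 had a change of -0.51 (adjusted p = 6.5e-05). Of 14 Hedgehog genes PTCH1, the receptor, fell by 0.62, and by 0.56 and 0.58 without TNFα replicate 3 and without unstimulated replicate 2, both below the fold threshold.

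In the list named nephron and urogenital transcription factors 5 of 21 rose and 4 fell, beside 0.845% that rose and 0.334% that fell over all genes. Its members are developmental factors, of which several are not particular to these tissues. The list was chosen with earlier results of these data known, so that the count is not a result about the urogenital tract. MSX1 rose by 1.31 (adjusted p = 1.19e-08), HAND1 by 1.09 and SIX5 by 0.84, and PRRX1 and TFAP2C by 0.64 and 0.60. EYA1, a phosphatase and transcriptional cofactor that kidney development requires, had 6.96, 6.81 and 6.98 with TNFα and 7.91, 7.59 and 8.07 without, a fall of 0.94 (adjusted p = 0.000241), and EBF2, OSR1 and MEOX2 fell by 0.70, 0.61 and 0.59. PRRX1 was 0.58 both without TNFα replicate 2 and without unstimulated replicate 2, below the fold threshold, TFAP2C 0.55 to 0.58 without TNFα replicate 3, unstimulated replicate 1 or unstimulated replicate 3, and OSR1 -0.54 and -0.52 without TNFα replicate 3 and unstimulated replicate 1. MEOX2 was not called without TNFα replicate 3 (-0.47, adjusted p = 0.116), unstimulated replicate 1 (-0.53, 0.103) or unstimulated replicate 3 (-0.52, 0.0932). In the fit on the 6 untransfected arrays HAND1 (adjusted p = 0.15), OSR1 (0.11) and MEOX2 (0.198) were not called.

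Of 28 receptor tyrosine kinases, ligands and their partners 3 fell and 0 rose. KIT, the receptor of stem cell factor, had 8.18, 8.0 and 7.99 with TNFα and 8.78, 8.93 and 8.88 without (log2 change -0.81, SE 0.09, adjusted p = 4.89e-06), NRP1, a coreceptor of VEGF, fell by 0.86 and FGFBP1, which releases FGF from the matrix, by 0.86. EGFR had a change of 0.43 (adjusted p = 0.0066) below the fold threshold. Of 17 cyclic nucleotide phosphodiesterases 3 fell and 1 rose, beside 0.334% that fell and 0.845% that rose over all genes. PDE4B, PDE4A and PDE3A, enzymes that break down cyclic AMP, fell by 0.79, 0.68 and 0.67, and PDE9A, which is specific for cyclic GMP, rose by 0.96 (adjusted p = 8.39e-05). PDE4B was not called without unstimulated replicate 1 (-0.70, adjusted p = 0.0541), nor PDE4A without TNFα replicate 3 (-0.60, 0.0744) or unstimulated replicate 1 (-0.62, 0.0694).

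**Figure D4:**
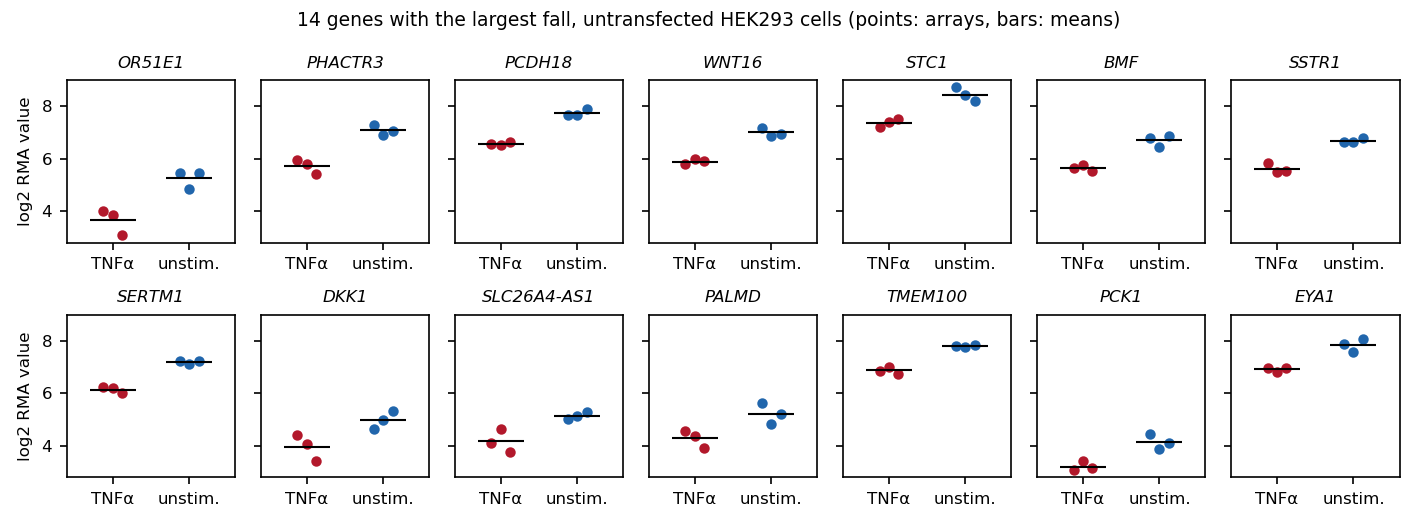
Log2 RMA value on each array (points) and its mean (bar) with TNFα and without for the 14 genes with the largest fall among called genes whose groups of arrays do not overlap. The log2 changes run between -1.6 and -0.94, smaller than in the plot of the rises.

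STC1, PCK1 and PALMD were also among the 20 largest falls. STC1 (stanniocalcin), a regulator of calcium and phosphate, had 7.2, 7.39 and 7.52 with TNFα and 8.73, 8.43 and 8.20 without (log2 change -1.08, SE 0.22, adjusted p = 0.00939). PCK1, the rate-limiting enzyme of gluconeogenesis, fell by 0.94 and PALMD by 0.95. PALMD was not called in the fit on the 6 untransfected arrays (adjusted p = 0.174) or by a plain linear model (0.0518). STC1 was not called without TNFα replicate 1 (-1.0, adjusted p = 0.0623) or unstimulated replicate 1 (-0.95, 0.0779), PCK1 not without unstimulated replicate 1 (-0.78, 0.0514), and PALMD not without TNFα replicate 2 (-1.0, 0.0577), TNFα replicate 3 (-0.76, 0.165), unstimulated replicate 1 (-0.75, 0.177) or unstimulated replicate 3 (-0.96, 0.073). TXNIP, which inhibits thioredoxin and glucose uptake, had 8.82, 8.80 and 8.74 with TNFα and 9.51, 9.43 and 9.58 without, a fall of 0.72 (SE 0.09, adjusted p = 8.15e-05), and was the 1 of 17 oxidant and antioxidant genes that passed. SOD2, a common TNFα target, had means of 12.06 with TNFα and 12.07 without.

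Of 19 G2-M genes and 18 G1-S genes 0 passed, beside 0.845% that rose and 0.334% that fell over all genes, and their log2 changes lay between -0.17 and 0.11. The same held for 11 heat shock proteins (-0.20 to 0.10), for 11 ribosomal proteins by their main probe sets (-0.02 to 0.02), and for 16 caspases and IAP proteins (-0.25 to 0.32), among which BIRC2 had a change of 0.32 (adjusted p = 0.028). In the integrated stress response list 1 of 18 rose, the phosphatase subunit PPP1R15A (GADD34), by 0.94, and VLDLR fell by 0.71, while ATF3 had a change of 0.20 (adjusted p = 0.384). Of 19 members of the GADD45 and p53 list GADD45B, an NFκB target that restrains JNK, rose by 1.12 with all 4 probe sets called, FAS by 0.78 and DRAM1 by 0.67, whereas CDKN1A had a change of 0.14 (adjusted p = 0.791). DRAM1 was not called without TNFα replicate 1 (0.60, adjusted p = 0.0812), TNFα replicate 2 (0.60, 0.0862), unstimulated replicate 1 (0.66, 0.0516) or unstimulated replicate 2 (0.64, 0.0542). None of 14 dual specificity phosphatases passed by its main probe set, DUSP8 with a change of 0.55 (adjusted p = 0.00052) being below the fold threshold. Of the 10 blood cell and 10 fibroblast markers 0 passed.

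Probe sets of a gene did not always give the same answer, and 42 genes were called only by a probe set other than that of highest mean. CXCR4, the receptor of CXCL12, had a change of 0.41 by its brightest probe set (adjusted p = 0.00088, below the fold threshold) and of 0.86 and 0.83 by the other two, which were called. RPL35A, a ribosomal protein gene named after its values were seen, had changes of 0.01 and 0.02 by the probe sets at 13.29 and 12.88 with TNFα, and 1.02 by one at 4.21 with TNFα and 3.19 without. CXCL8 rose by 3.55 and 1.46 by its 2 probe sets and TFPI2 by 2.15 and 3.0, all called. In all 64 upregulated and 10 downregulated genes had more than 1 called probe set, among them TIFA, with all 3 called.

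The response was also read in the cells with plasmid, each against its own arrays without TNFα. Of the 291 upregulated probe sets of untransfected cells 223 (76.6%) were also upregulated in empty vector cells, 202 (69.4%) in SIRT6 cells and 168 (57.7%) in H133W cells, and 142 (48.8%) in all of them. Over all single-gene probe sets 0.630% were upregulated in empty vector, 0.596% in SIRT6 and 0.601% in H133W cells. Of the 87 downregulated probe sets 63 (72.4%) were also downregulated in empty vector cells, 66 (75.9%) in SIRT6 cells and 57 (65.5%) in H133W cells, and 47 (54.0%) in all of them. The background was 0.316% of single-gene probe sets in empty vector, 0.394% in SIRT6 and 0.630% in H133W cells. None was called in the opposite direction. Read the other way, the transcripts of untransfected cells made up 86.1% of the upregulated and 48.5% of the downregulated ones of empty vector cells, 82.4% and 40.7% of those of SIRT6 cells, and 68.0% and 22% of those of H133W cells. H133W + TNFα replicate 3 had the lowest weight of all arrays (0.0844) and the largest difference between the 3′ and 5′ probe sets of β-actin (3.03, against 1.5 to 1.65 on the 6 arrays of untransfected cells), a sign of RNA quality. Without it 165 transcripts in place of 259 fell in H133W cells, and 168 and 58 of the untransfected calls were shared with them.

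**Figure D5:**
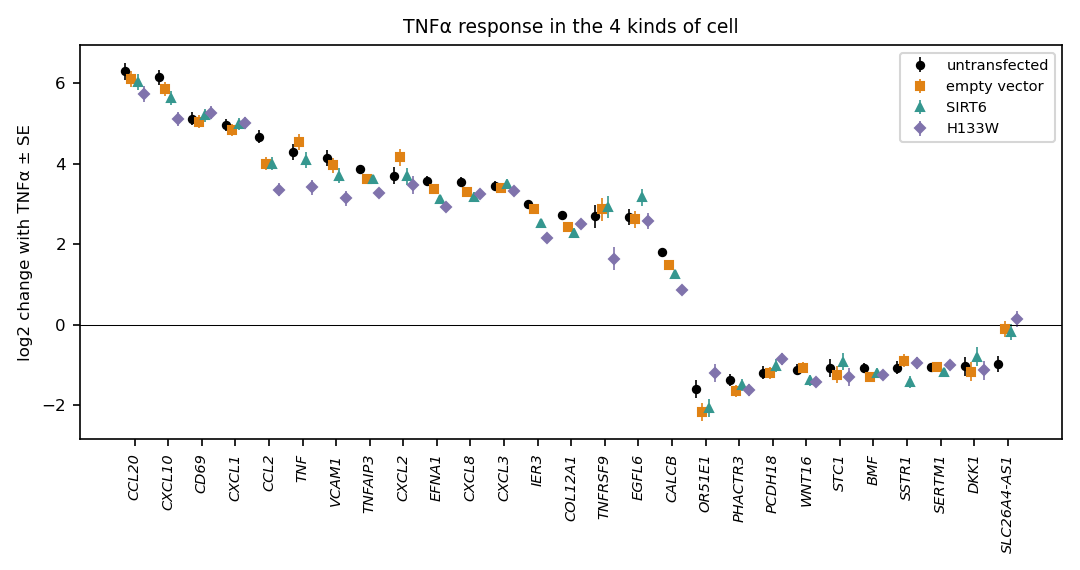
Log2 change with TNFα ± SE (from the linear model over all 24 arrays, 3 arrays per condition) in untransfected, empty vector, SIRT6 and H133W cells for the 16 genes with the largest rise, CALCB and the 10 genes with the largest fall in untransfected cells. The kinds of cell lie close together for most genes, CALCB has changes of 1.81, 1.49, 1.26 and 0.86, and SLC26A4-AS1 has -0.97 in untransfected cells and values near 0 in the others.

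The difference of the responses was tested itself, as an interaction of TNFα and the kind of cell. It was called for 0 transcripts between untransfected and empty vector cells and for 0 between untransfected and SIRT6 cells, by limma and by a plain linear model. At an unadjusted p under 0.05 there were 902 (2.19% of single-gene probe sets) against empty vector and 1169 (2.84%) against SIRT6 cells. Where nothing differs, a share of 0.05 is expected. Between untransfected and H133W cells 2 were called (3370 at an unadjusted p under 0.05, 8.2%), IER3 and CALCB. The count was 4 without H133W + TNFα replicate 3, 11 with dim probe sets left out and 21 with array weights. CALCB rose by 0.94 more in untransfected than in H133W cells (SE 0.09, adjusted p = 3.99e-05), and IER3 by 0.87 more (SE 0.10, adjusted p = 0.00133). For CALCB the stimulated levels were alike, 10.46, 10.38 and 10.49 in untransfected and 10.56, 10.45 and 10.46 in H133W cells, and the levels without TNFα were 8.63, 8.59 and 8.69 in untransfected and 9.64, 9.68 and 9.57 in H133W cells. For IER3 the stimulated levels were 11.89, 11.85 and 11.90 in untransfected and 11.79, 11.67 and 11.67 in H133W cells, and those without TNFα 8.94, 8.73 and 8.93 in untransfected and 9.60, 9.53 and 9.57 in H133W cells. In both genes the 2 kinds of cell stood further apart without TNFα than with it. The other cells with plasmid lay between them without TNFα for CALCB, at 9.02, 9.02 and 9.06 in empty vector and 9.17, 9.15 and 9.2 in SIRT6 cells. For IER3 the levels without TNFα were 8.92, 8.93 and 9.12 in empty vector cells, which overlapped those of untransfected cells, and 9.39, 9.19 and 9.2 in SIRT6 cells, which lay between untransfected and H133W cells. The response differed from that of empty vector cells by 0.32 for CALCB and 0.14 for IER3 (adjusted p = 1 for each) and from that of SIRT6 cells by 0.55 (adjusted p = 0.171) and 0.48 (adjusted p = 0.974). Without H133W + TNFα replicate 3 the differences from H133W cells were 0.93 (adjusted p = 0.000127) and 0.85 (adjusted p = 0.00472).

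Among the other genes of large change the difference between untransfected and H133W cells did not pass, and the negative differences given here were small. The median log2 change of the 291 upregulated probe sets was 0.95 in untransfected, 0.84 in empty vector, 0.83 in SIRT6 and 0.68 in H133W cells. For the 87 downregulated ones it was -0.72, -0.75, -0.79 and -0.76. Both sets were chosen by their change in untransfected cells. CXCL10 rose by 6.14 in untransfected and 5.12 in H133W cells (difference 1.02, adjusted p = 0.428). MCP1 (CCL2) rose by 4.68 in untransfected cells, and by 4.0 in empty vector, 4.0 in SIRT6 and 3.35 in H133W cells, and the difference of 1.32 from H133W cells had an adjusted p of 0.0875. NFKBIA rose by 2.48 in untransfected cells against 2.35 in empty vector, 2.13 in SIRT6 and 1.85 in H133W cells (difference from H133W cells 0.63, adjusted p = 0.0721). CD69 rose by 5.12 in untransfected and 5.27 in H133W cells (adjusted p of the difference 0.855), CXCL1 by 4.96 in untransfected and 5.01 in H133W cells (0.962) and PTX3 by 2.35 in untransfected and 2.44 in H133W cells (0.903). SLC26A4-AS1, an antisense RNA, fell by 0.97 in untransfected cells, with changes of -0.10, -0.17 and 0.15 in empty vector, SIRT6 and H133W cells, and no difference passed (adjusted p = 1, 1 and 0.447). Its call in untransfected cells was lost without TNFα replicate 3 (-0.77, adjusted p = 0.0811) or unstimulated replicate 3 (-0.91, 0.055). Of the upregulated probe sets of untransfected cells 42 did not pass both thresholds in any of the other cells. The largest change among them was that of HAS2, 1.0 in untransfected cells beside 0.52, 0.55 and 0.29 in empty vector, SIRT6 and H133W cells. In empty vector and SIRT6 cells HAS2 missed the fold threshold alone (adjusted p = 0.002 and 0.00101), and no difference from untransfected cells passed (adjusted p = 1 against empty vector, 1 against SIRT6 and 0.106 against H133W cells).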

How the data were processed

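RNA of HEK293 cells was hybridised to 24 Affymetrix HG-U133 Plus 2.0 arrays, from which the authors computed RMA signals with ArrayStudio. The deposited values are on the log2 scale and cover 54675 probe sets. These values were used unchanged, and 0 columns were without a sample. The authors used a general linear model with the thresholds applied here.

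One mean per condition was fitted to all 24 arrays (8 conditions) with limma 3.58.1 in R 4.3.3, with moderated variances (residual df 16, prior df 3.47), and the Benjamini-Hochberg adjustment of p took in every probe set. Calls needed an adjusted p under 0.05 and a fold over 1.5. Probe sets were named through the platform's gene table, with 41043 of 41097 single-gene probe sets matched by Entrez ID to GRCh38.p14 symbols. Those of several genes (1801) or no name (11777) were not counted. The fit was tested on simulated data with known changes. Precision is limited by having 3 arrays in each condition.

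The members and the 44 gene lists were chosen with earlier results of these data known. Named were the 20 largest rises and falls with separated arrays, up to 8 called and 3 other members of each list, MCP1, TLR7 and CXCL10, genes whose response differed between cells, and members of counts of 5 or fewer. The fit was repeated as a plain linear model, on 6 arrays alone, with a trended variance prior, on probe sets averaging 5 or more, on centred or quantile normalised arrays, with array weights, with a replicate block, with no fold threshold, with other probe sets and with arrays left out. For untransfected cells against the transfected ones, leaving out single arrays was chosen after seeing the data.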

Additional observations from a re-analysis of the deposited data

Results flagged for a closer look

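The TNFα response differed between untransfected and H133W cells by the test of the difference itself for 2 transcripts, the calcitonin gene-related peptide gene CALCB and the early response gene IER3. The log2 change of CALCB was larger by 0.9433 in untransfected than in H133W cells (SE 0.09, adjusted p = 3.99e-05) and that of IER3 by 0.8688 (SE 0.10, adjusted p = 0.00133). Over the alternatives run for this test, the difference of CALCB was 0.887 to 0.977 and that of IER3 0.778 to 0.904, and both passed in each of them, also without H133W + TNFα replicate 3. In each gene the H133W cells without TNFα had a higher level than untransfected cells, as did SIRT6 cells and, for CALCB, empty vector cells, and the part of the transfection in this was not tested.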

How the results depend on the processing

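The number of upregulated transcripts, 291, was 250 to 287 with each of the 6 arrays left out in turn and 506 without the fold threshold. The number of downregulated transcripts, 87, was less stable. It was 58 to 126 with each array left out (lowest without unstimulated replicate 1, highest without unstimulated replicate 2), 133 with array weights, 177 without the 3 arrays of lowest weight and 284 without the fold threshold. The number of transcripts whose response differed from H133W cells, 2, was 11 with dim probe sets left out, 21 with array weights and 4 without the 3 arrays of lowest weight, and 2 to 4 with single arrays left out (4 without TNFα replicate 3, unstimulated replicate 1 or H133W + TNFα replicate 3). The 189 transcripts called in all 4 kinds of cell were 428 without the fold threshold. The cause of these shifts was not tested. With a replicate block 284 rose and 83 fell. Deviations of TNFα and unstimulated arrays with the same number correlated at 0.125, -0.383 and -0.363. The highest correlation, 0.46, was between TNFα replicate 3 and unstimulated replicate 2, both of low weight. Deviations from a mean of 3 arrays depend on each other, so that these values cannot decide whether arrays of the same number were handled together. Of 120 named genes that were called, 95 kept the call with each array left out and 25 lost it in at least 1 case. The fit on the 6 untransfected arrays alone ended the call of 18, of which 13 also lost it with an array left out and 5 did not (TNFSF15, IL18R1, RIGI, HAND1 and SERPINB8). Over all alternatives 0 named genes changed sign with a call.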
